A study of Mus musculus with 16 samples.

Results

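Ubiquitin-conjugating enzymes (E2 enzymes) stand in the middle of the cascade that attaches ubiquitin to proteins. An E1 enzyme activates ubiquitin, an E2 takes it over, and an E3 ligase brings the charged E2 to the protein to be marked. The E2 often sets the linkage of the ubiquitin chain, and some E2 enzymes carry ubiquitin-like modifiers such as SUMO, NEDD8, or ISG15 instead. In skeletal muscle the cascade supplies the proteasome, a main route by which contractile proteins are broken down during wasting. Of the 21923 genes in the deposited table, 37 have a symbol that starts with Ube2, and these genes were described here. The rule goes by name, so that it took in Ube2cbp, which is known as an E2-binding protein with ligase activity and not as an E2, and left out E2 enzymes with other names, such as Cdc34. In each comparison 33 of the 37 genes had enough reads to be tested. Ube2dnl1 and Ube2dnl2 had 0 counts in all libraries, and Ube2d2b and Ube2u reached at most 0.147 and 0.0555 CPM (counts scaled to the total of the library) in any library.

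The RNA came from gastrocnemius, a calf muscle, of 16 mice in 4 groups of 4, with 1 library per mouse. NOR mice received PBS and no tumor. CAC mice carried tumors and received PBS daily from day 9, as a model of cancer cachexia. AM mice carried the same tumors and received amiloride, a potassium-sparing diuretic studied here as an inhibitor of exosome release, at 2 mg/kg daily from day 9. In KD mice the tumors came from cells with a Rab27 knock-down, in which exosome release is impaired, and these mice, labelled un-treated, received PBS daily from day 9 per the methods of the study. The knock-down was made in the tumor cells, so the muscle libraries cannot check it. The mice were 6 to 8 weeks old when purchased, per the methods of the study, and day 30 was the day of muscle collection. Replicates 1 and 2 of every group carry the label C57BL/6, the hosts of LLC lung carcinoma cells (700000 cells injected), and replicates 3 and 4 are labelled as BALB/c (spelled BABL/c in the strain label), the hosts of CT26 colon carcinoma cells (1000000 cells injected). Strain and tumor line therefore cannot be told apart.

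Library totals ranged from 35913190 to 61032708 gene counts. The 12 skeletal muscle markers were all present, with a summed level of 85834 to 225870 CPM, so the libraries hold muscle. Some libraries stood apart in ways the groups do not account for. In CAC replicate 4, AM replicates 1 and 3, and KD replicate 1, Rpl26 was at 9.03 to 31.1 CPM against 248 to 405 CPM in the other 12 libraries, although 2 of these libraries are labelled C57BL/6 and 2 BALB/c. A list of 10 lymphocyte genes summed to at most 3.49 CPM in 5 libraries and to at least 38.6 CPM in the other 11. KD replicate 3 had no reads on 4 Y-linked genes, which summed to at least 111 CPM in the other 15 libraries. The labels speak of BALB/c mice of both sexes and the methods of the study also of male mice, and the sex of single mice is not given in the sources used here. Of the other marker lists, 4 of 8 neutrophil genes were upregulated in CAC vs. NOR, with a summed level of 12.6 to 46.0 CPM for NOR mice, 119 to 273 for CAC mice, 24.5 to 281 for AM mice, and 16.5 to 405 for KD mice. None of 8 macrophage, 7 slow fibre, 7 adipocyte, and 10 lymphocyte genes were called in this comparison. The number of E2 genes called in each comparison of groups was also determined without the 4 libraries of the Rpl26 pattern.

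The promoters of 3 genes are shown because these genes were higher in the CAC gastrocnemius and because Ube2j1 and Ube2j2, the E2 enzymes of the endoplasmic reticulum membrane, were both past the FDR limit. Each runs from 250 bases before to 50 bases after the transcript start in RefSeq (GRCm38.p6). Capitals mark CCACG, the constant end of the endoplasmic reticulum stress element, and TGACG, the core of sites for the ATF and CREB factors, each on either strand. Ube2j1 lies at chr4:33031130-33031429 on the + strand, Ube2j2 at chr4:155943563-155943862 on the + strand, and Ube2l6 at chr2:84798578-84798877 on the + strand.
Ube2j1: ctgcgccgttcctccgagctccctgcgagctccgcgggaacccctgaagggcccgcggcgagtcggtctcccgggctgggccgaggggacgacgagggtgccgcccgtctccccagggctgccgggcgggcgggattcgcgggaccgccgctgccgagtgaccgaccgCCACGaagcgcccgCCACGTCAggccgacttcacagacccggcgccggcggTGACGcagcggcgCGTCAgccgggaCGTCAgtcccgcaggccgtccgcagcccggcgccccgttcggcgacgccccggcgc
Ube2j2: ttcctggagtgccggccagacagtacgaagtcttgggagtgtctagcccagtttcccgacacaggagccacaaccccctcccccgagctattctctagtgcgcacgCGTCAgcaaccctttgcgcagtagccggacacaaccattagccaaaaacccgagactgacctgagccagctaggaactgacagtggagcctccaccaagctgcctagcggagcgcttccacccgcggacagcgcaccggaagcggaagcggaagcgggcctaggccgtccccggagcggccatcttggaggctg
Ube2l6: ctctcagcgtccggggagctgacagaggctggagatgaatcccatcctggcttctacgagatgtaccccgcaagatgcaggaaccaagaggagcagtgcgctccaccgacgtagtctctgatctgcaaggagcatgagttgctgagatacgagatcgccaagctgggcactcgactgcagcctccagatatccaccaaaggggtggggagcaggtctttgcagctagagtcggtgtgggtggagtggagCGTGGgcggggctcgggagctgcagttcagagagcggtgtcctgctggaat
The Ube2j1 promoter held CCACG at 2 places and TGACG at 4 places, and one CCACG overlapped one TGACG on the other strand. The Ube2j2 promoter held TGACG once, and the Ube2l6 promoter held CCACG once. Neither CCAAT, the start of the endoplasmic reticulum stress element, nor GAAA followed after 2 bases by a second GAAA, a core of the interferon-stimulated response element, was in the 3 windows. Of 32851 RefSeq promoters of this length, 32.8% held CCACG, 20.8% TGACG, 37.4% CCAAT, and 3.4% the spaced GAAA pair, on either strand, so that a match is a description of these letters and not a site.

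Levels between genes can be compared per length, as FPKM. The 4 highest genes had a mean of over 100 FPKM across the 16 libraries, 27 of the 37 genes had at least 10 FPKM, and 5 were below 1 FPKM. Ube2b, a RAD6 enzyme that works with the ligases of the N-end rule, was the most abundant at a mean of 247 FPKM, or 19.6% of the summed FPKM of the 37 genes. Its level was 235 ± 26.5 FPKM in NOR and 282 ± 35.6 FPKM in CAC (SD, n = 4). Next came Ube2g2 (120 FPKM), which builds lysine-48 chains in endoplasmic reticulum-associated degradation. Ube2d3 (119 FPKM) and Ube2d1 (110 FPKM), broad-acting enzymes that serve many ligases, followed. Ube2s (68.9 FPKM), which lengthens lysine-11 chains for the anaphase-promoting complex, was next. The ranges of Ube2g2, Ube2d3, and Ube2d1 over all 16 libraries overlapped, although within CAC Ube2d1 (87.3 to 101 FPKM) was below every value of Ube2g2 (123 to 157 FPKM) and Ube2d3 (121 to 175 FPKM), while Ube2b was above all 3 of them in every library. These 5 genes made up 52.9% of the summed FPKM. The other RAD6 enzyme, Ube2a, was at 13.2 FPKM.

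**Figure D1:**
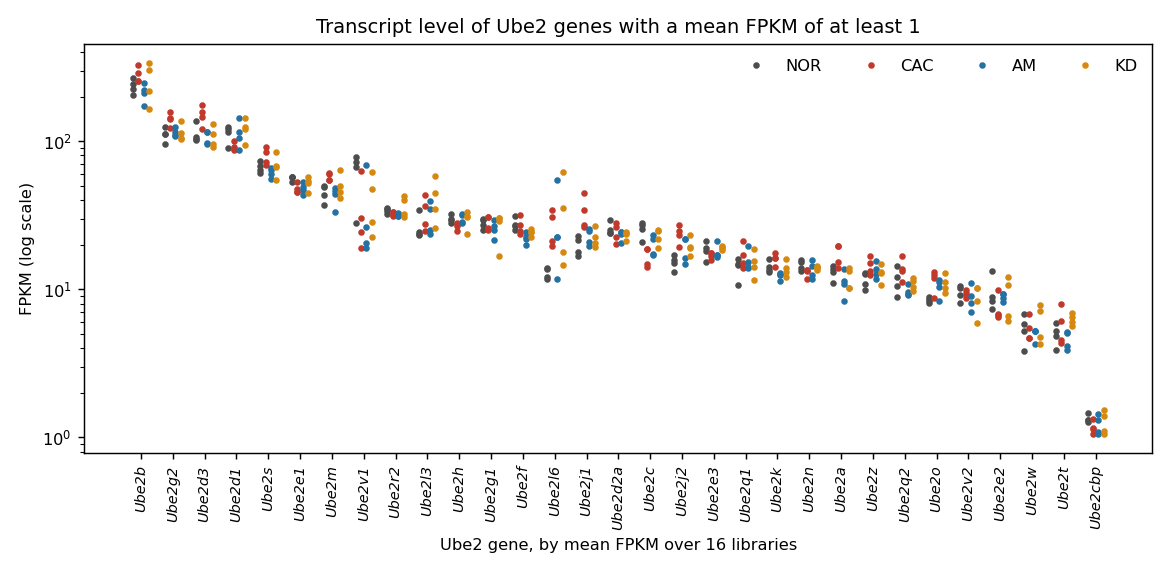
Transcript level in FPKM on a log axis for 31 of the 32 Ube2 genes with a mean of at least 1 FPKM, ordered by their mean, with 1 point per library coloured by group. Ube2b stands alone at the top, and Ube2v1 and Ube2l6 spread most between mice among the genes above 20 FPKM.

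The summed level of the 37 genes showed no large shift between the groups. After TMM normalization, which sets libraries to a common scale on the bulk of their genes, the NOR mice had 1961 ± 121 CPM and the CAC mice 1986 ± 197 CPM (SD, n = 4). The AM mice had 1808 ± 191 CPM and the KD mice 2073 ± 467 CPM. On the FPKM scale, which uses the library total alone, the sums were 1223 ± 84.1, 1359 ± 10.4, 1168 ± 70.7, and 1272 ± 152. The direction of CAC against NOR was the same on both scales, but only FPKM set the groups apart, at 1351 to 1373 against 1173 to 1349. Scaling by totals also moved the median of all genes by 0.12 on the log2 scale in CAC vs. NOR, and changes are given after TMM normalization.

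CAC was compared with NOR to see how the muscle of tumor-bearing mice differs from that of healthy mice. Of the 33 tested genes, 3 were called (a false discovery rate, FDR, of at most 0.05 and a change of at least 1.5-fold in either direction, by edgeR's quasi-likelihood test). Ube2l6 and Ube2j1 were upregulated (background for upregulation 4.32%) and Ube2c was downregulated (background 5.13%). That is 9.09% of the tested genes, beside 9.45% of all 14666 genes tested, so the share was near the background. Without the fold limit Ube2j2 was added to the genes that rose, beside 7.79% of all genes. An unadjusted p below 0.05 was reached by 11 of the 33 genes (33.3%, background 29.1%), with 5 higher (background 15.5%) and 6 lower (background 13.6%). The values of the CAC and NOR mice did not overlap in 9 genes (27.3%, background 23.3%). The median log2 fold change was 0.10 beside 0.01 over all genes, and the median of its size was 0.23 beside 0.27. For 17 of the 33 genes the 95% interval of the change lay within 1.5-fold in both directions. Leaving out CAC replicate 4, the only library of the Rpl26 pattern in this comparison, reduced the 3 calls to 1, Ube2l6. The calls numbered 0 without NOR replicate 2 and 1, again Ube2l6, without NOR replicate 1 or NOR replicate 3.

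**Figure D2:**
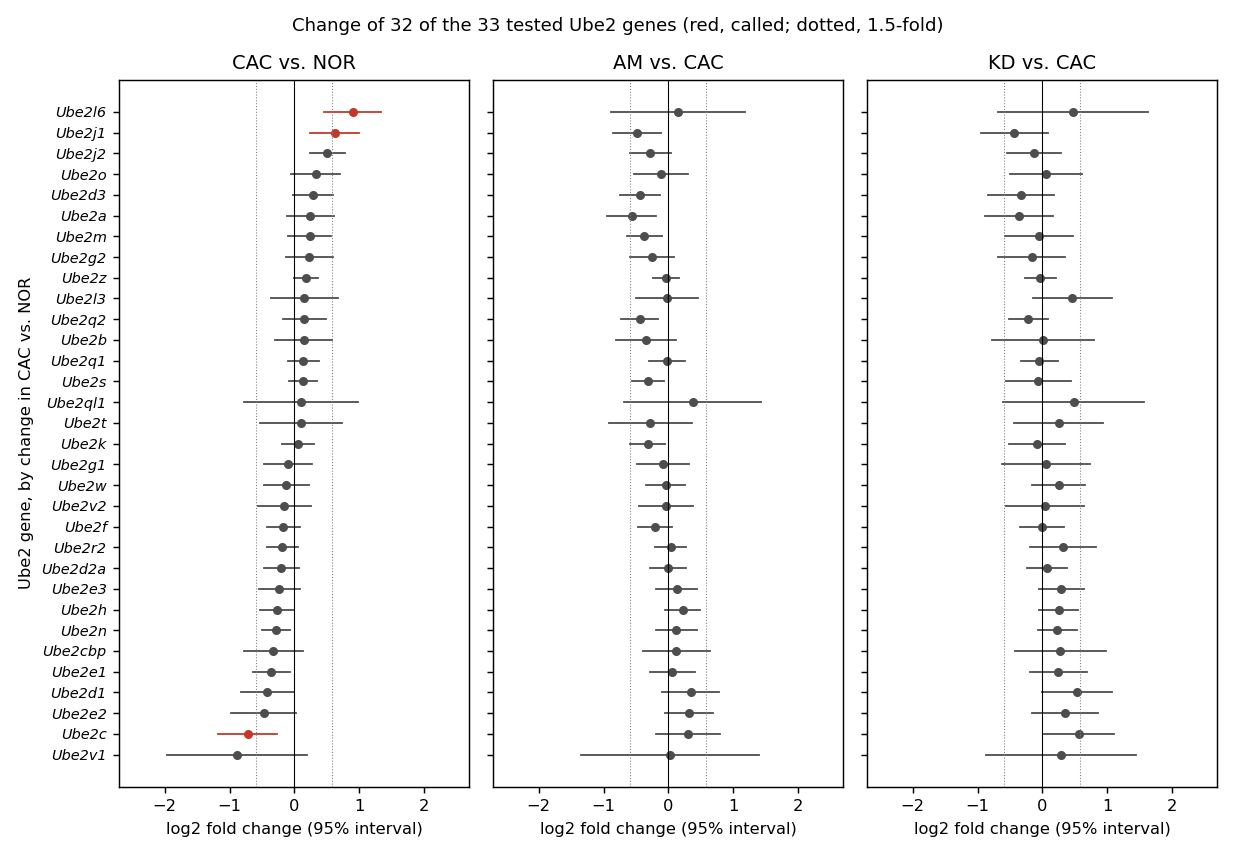
Log2 fold change with its 95% interval for 32 of the 33 tested Ube2 genes in 3 panels (CAC against NOR, AM against CAC, KD against CAC), in the order of the change in CAC vs. NOR. Ube2l6, Ube2j1, and Ube2c are called in the first panel and no gene in the other panels.

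Ube2l6 encodes the E2 that passes ISG15, an interferon-induced modifier, to its ligases. Its level was 12.6, 11.4, 13.6, and 13.0 CPM in NOR and 30.6, 20.3, 26.2, and 17.5 CPM in CAC. Every CAC mouse was above every NOR mouse. The log2 fold change was 0.90 ± 0.18 (SE, edgeR FDR = 0.0156), or 1.87-fold. It missed the FDR limit without NOR replicate 2 (FDR = 0.053) and in a fit of all 16 libraries (FDR = 0.253). The level varied far more in the AM mice (19.4, 52.6, 21.4, and 11.5 CPM) and the KD mice (29.7, 68.6, 15.7, and 16.6 CPM). AM replicate 2 and KD replicate 2 were the highest of all libraries, and AM replicate 4 lay at the level of NOR. These were also the libraries with most and least RNA of erythroid genes. Alas2, the first enzyme of heme synthesis in red cell precursors, was at 11.2 to 13.5 CPM in NOR and 48.3 to 120 CPM in CAC, with 232 CPM in AM replicate 2, 316 CPM in KD replicate 2, and 9.12 CPM in AM replicate 4. Not all libraries followed this order. Alas2 was at 52.7 CPM in KD replicate 1 and 53.2 CPM in KD replicate 3, while Ube2l6 was at 29.7 and 15.7 CPM there. The summed level of the 9 erythroid genes in the table ranged over 1003 to 1375 CPM for NOR, 3648 to 8722 for CAC, 967 to 16111 for AM, and 2231 to 21228 for KD, and 5 of 7 tested were upregulated in CAC. In bulk muscle, fewer cells of a type and less RNA per cell cannot be told apart. The part of red cell RNA in the level of Ube2l6 was not tested. Of 13 interferon response genes 0 were called in CAC vs. NOR, and their summed level was 132 to 156 CPM in NOR and 114, 125, 497, and 85.5 CPM in CAC, so that CAC replicate 3 was above and the other 3 CAC mice were below every NOR mouse. Isg15 itself had a log2 fold change of 0.61 (FDR = 0.534), with 14.9 CPM in CAC replicate 3, 2.36 to 3.54 CPM in the other CAC mice, and 3.15 to 4.86 CPM in NOR. The E1 for ISG15, Uba7, had a log2 fold change of 0.09 (FDR = 0.923), with 40.4 CPM in CAC replicate 3 and 9.61 to 13.4 CPM in the other CAC mice.

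Ube2o, a large E2 with ligase activity that removes proteins from maturing red cells, was looked at beside Ube2l6 after its values were seen. It was at 47.9, 43.1, 46.9, and 44.1 CPM in NOR and 71.3, 65.3, 50.3, and 43.0 CPM in CAC, and these ranges overlapped. Its highest library was KD replicate 2 at 78.2 CPM. The log2 fold change in CAC was 0.33 (FDR = 0.202).

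**Figure D3:**
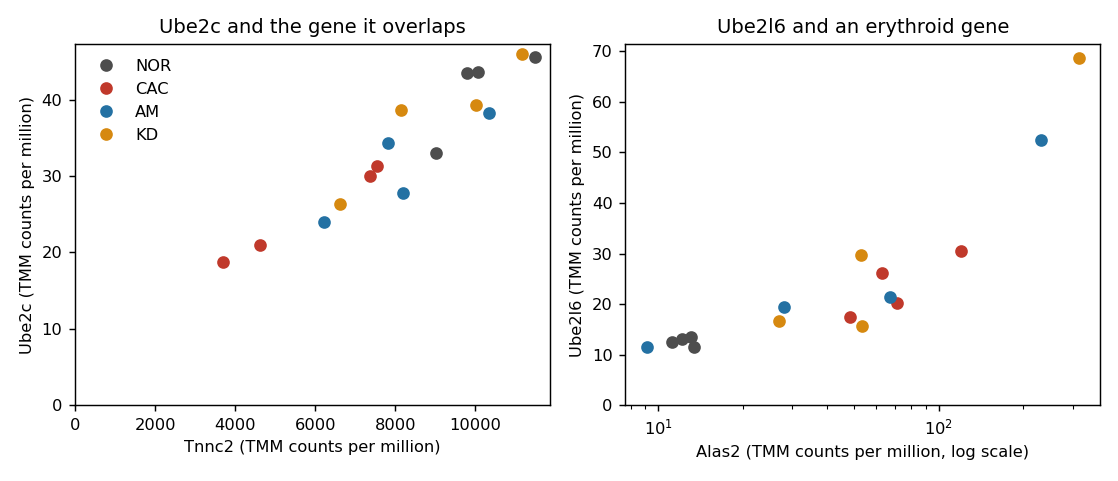
Left, Ube2c against Tnnc2, the gene it overlaps, and right, Ube2l6 against the erythroid gene Alas2 (log axis), all in TMM-normalized CPM with 1 point per library coloured by group. Ube2c lies at 0.34 to 0.506 per 100 CPM of Tnnc2 in all 16 libraries, and the 2 highest Ube2l6 values belong to the 2 libraries highest in Alas2.

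Ube2j1 and Ube2j2 encode the membrane-anchored E2 enzymes of endoplasmic reticulum-associated degradation, which clears misfolded proteins from the secretory pathway. Ube2j1 was at 46.6, 55.6, 44.8, and 52.8 CPM in NOR and at 68.6, 68.1, 67.8, and 104 CPM in CAC. All CAC mice were higher, 3 of them close together and replicate 4 well above. The log2 fold change was 0.62 ± 0.15 (SE, edgeR FDR = 0.0324), or 1.54-fold. Without CAC replicate 4 it was 0.45 (FDR = 0.0236), which is under the fold limit, and the call held only without CAC replicate 2 or 3, being lost when any of the other 6 mice was left out. Ube2j2 was at 26.9, 24.7, 21.0, and 26.7 CPM in NOR and at 32.2, 37.3, 34.8, and 37.0 CPM in CAC, again without overlap. Its log2 fold change of 0.51 ± 0.11 (SE, edgeR FDR = 0.0217), or 1.42-fold, passed the FDR limit and not the fold limit. Ube2g2, the soluble E2 of the same route, had a log2 fold change of 0.23 (FDR = 0.34). It was at 115, 112, 88.8, and 101 CPM in NOR and at 134, 133, 90.4, and 135 CPM in CAC, where replicate 3 lay within the NOR range. Syvn1, a ligase of this route, was not called (log2 fold change 0.16). None of the 31-base words of the Ube2j1 transcript occur elsewhere in the GENCODE M21 annotation, while Ube2j2 shares 14.5%, mostly with the gene Gm5801.

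**Figure D4:**
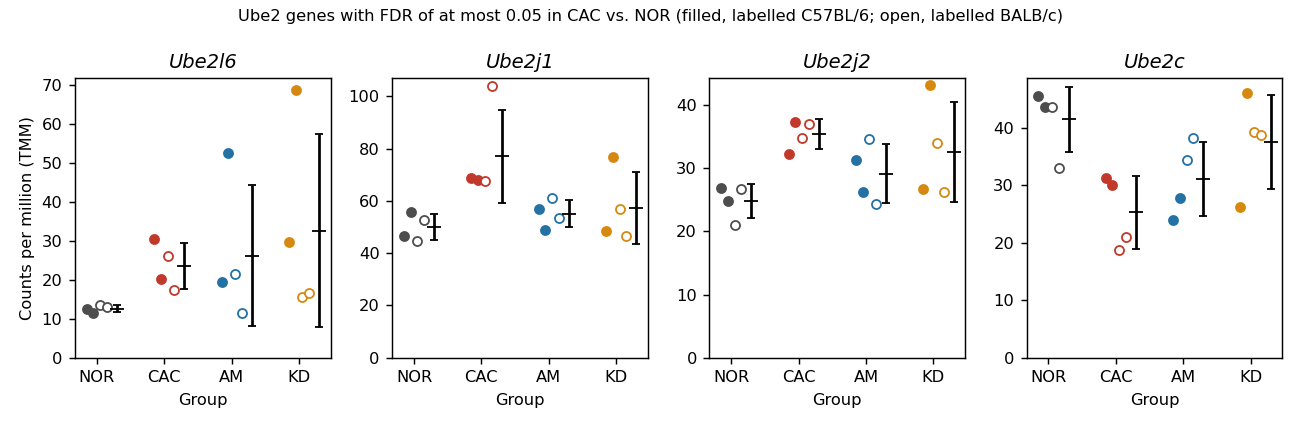
TMM-normalized CPM of the 4 Ube2 genes with an FDR of at most 0.05 in CAC vs. NOR, with 1 point per mouse (filled, labelled C57BL/6, and open, labelled BALB/c) and the mean with its SD beside each group. The CAC mice lie above the NOR mice in Ube2l6, Ube2j1, and Ube2j2 and below them in Ube2c, and AM replicate 2 and KD replicate 2 stand out in Ube2l6.

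Ube2c, the E2 that starts chains for the anaphase-promoting complex in dividing cells, was at 45.6, 43.6, 43.5, and 33.0 CPM in NOR and at 31.3, 30.0, 18.8, and 21.0 CPM in CAC. All CAC mice were lower. The log2 fold change was -0.72 ± 0.19 (SE, edgeR FDR = 0.0381). The call was lost without CAC replicate 3 or 4 or without NOR replicate 1, 2, or 3, where the FDR was 0.0663 to 0.0954. Ube2c lies on chromosome 2 from 164769898 to 164778822 on the + strand (GRCm38), and its annotated exons share 592 bases with exons of Tnnc2, the troponin C of fast muscle fibres, which lies from 164777161 to 164779967 on the other strand. The shared bases fall in 5 blocks, and 4 of these (137, 115, 144, and 52 bases) are wholly coding sequence of Tnnc2. The labels describe no step that marks strand and do not state whether the counting used it, and without strand reads of the 2 genes cannot be told apart there. Tnnc2 was at 9009 to 11479 CPM in NOR and at 3705 to 7553 CPM in CAC. In every library Ube2c amounted to 0.34 to 0.506 per 100 CPM of Tnnc2. This ratio was 0.41 ± 0.036 in NOR and 0.445 ± 0.0456 in CAC (SD, n = 4, two-sided exact permutation p = 0.314). The log2 fold change of Tnnc2 was -0.81 (FDR = 0.0769). Of 13 proliferation genes, 1 (Aurka) was called lower, and their summed level was 30.6 to 51.3 CPM in NOR and 15.3, 22.5, 85.7, and 17.2 CPM in CAC, again with CAC replicate 3 above and the other 3 CAC mice below every NOR mouse. Ube2s, the partner of Ube2c in the same complex, was not called. It was at 48.2, 50.4, 45.6, and 47.1 CPM in NOR and 50.7, 59.9, 51.5, and 48.1 CPM in CAC, with a log2 fold change of 0.13 (FDR = 0.373).

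The RAD6 and broad-acting enzymes, which hold the largest part of the transcript pool, were not called. Ube2b was at 329, 314, 273, and 242 CPM in NOR and at 411, 348, 244, and 285 CPM in CAC, and the ranges overlapped. Its log2 fold change was 0.14, with a 95% interval of -0.29 to 0.58 (FDR = 0.657). Ube2d1 was at 196, 178, 167, and 128 CPM in NOR and at 152, 133, 101, and 119 CPM in CAC, with a log2 fold change of -0.42 (FDR = 0.143). Ube2d3 had a fitted value above 0, at 183, 210, 162, and 166 CPM in NOR and 199, 228, 198, and 257 CPM in CAC, with a log2 fold change of 0.29 (FDR = 0.178). The difference between these 2 paralogs was not tested. The lysine-48 enzyme Ube2g1 was at 120, 112, 117, and 96.7 CPM in NOR and at 124, 120, 81.1, and 92.4 CPM in CAC. Its log2 fold change was -0.10 (FDR = 0.721). In CAC replicates 3 and 4, both labelled BALB/c, Ube2b, Ube2d1, and Ube2g1 were each lower than in replicates 1 and 2, and the same held in NOR for Ube2b and Ube2d1. This order did not hold for these genes in AM or KD. In AM, Ube2b was at 185 and 256 CPM in replicates 1 and 2 and at 295 and 274 CPM in replicates 3 and 4.

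The lysine-63 enzymes and the UBE2E enzymes were lower in their fitted values and not called. Ube2n, which builds lysine-63 chains used in signalling and DNA repair, was at 58.1, 60.5, 59.7, and 53.7 CPM in NOR and at 47.9, 52.6, 41.7, and 49.1 CPM in CAC. The groups did not overlap, and the log2 fold change was -0.28 ± 0.09 (SE, edgeR FDR = 0.0661). All 3 UBE2E genes had values below 0, between -0.47 and -0.23, with the smallest FDR for Ube2e1 (0.0807), of which a part of the exons overlaps Nkiras1 on the other strand. Of the 5 enzymes for ubiquitin-like modifiers, 4 had log2 fold changes above 0 and only Ube2l6 was called.

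Ube2v1, the inactive partner of Ube2n, had the lowest log2 fold change, -0.89 with a 95% interval of -1.97 to 0.20 (FDR = 0.228). It was at 39.4, 96.2, 92.2, and 82.5 CPM in NOR and at 82.5, 37.9, 19.2, and 28.7 CPM in CAC, so that each group held high and low mice. Without CAC replicate 1 the log2 fold change was -1.43 and the gene was called (edgeR FDR = 0.0452). Of its 31-base words, 66.2% occur in other genes, above all in Gm20431, a read-through gene on the same strand that covers 1673 of its exonic bases. Gm20431 was at 53.4 to 87.7 CPM in 5 libraries (CAC replicates 3 and 4, AM replicates 1 and 3, and KD replicate 3) and at most at 10.2 CPM in the other 11. How the authors' counting split reads between both genes is not given in the sources used here, and their sum was 80.0 ± 25.2 CPM in NOR and 86.0 ± 30.9 CPM in CAC (two-sided exact permutation p = 0.6, n = 4). Ube2h, Ube2l3, Ube2c, and Ube2e1 also share over 20% of their words with other genes, and 18 of the 37 genes share under 5%.

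The 2 labelled strains were compared by an interaction term in CAC vs. NOR. It was called for 0 of the 33 genes at an FDR of at most 0.05 (background 0% of 15235 genes, 4.87% at an unadjusted p below 0.05). Ube2l3 alone had an unadjusted p below 0.05 (edgeR FDR = 1.00). Within mice labelled C57BL/6, 2 against 2, the log2 fold changes were 1.09 for Ube2l6, 0.42 for Ube2j1, and -0.54 for Ube2c. Within mice labelled BALB/c they were 0.75, 0.84, and -0.91, so the directions were the same in both, and 0 genes were called in either. CAC replicate 4, which is 1 of the 2 CAC mice labelled BALB/c, has the Rpl26 pattern, and since this pattern crosses the labelled strains, whether each label is right was not tested.

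AM was compared with CAC to see which of the transcripts move with amiloride in tumor-bearing mice. The CAC mice are the same as above, so the 2 comparisons are not independent. Of the 33 genes, 0 were called by edgeR or by DESeq2, beside 3.66% of all genes by edgeR (537 of 14674). An unadjusted p below 0.05 was reached by 7 genes (21.2%, background 21.7%), all of them lower in AM (background for lower 12.2%). They were Ube2q2, Ube2a, Ube2d3, Ube2m, Ube2j1, Ube2s, and Ube2k. The median log2 fold change was -0.04 beside 0.01 over all genes, and for 16 genes the 95% interval lay within 1.5-fold in both directions. The smallest FDR was that of Ube2q2, an E2 of little-known function, at 23.5, 22.6, 22.9, and 22.9 CPM in AM and 34.4, 32.5, 32.6, and 25.5 CPM in CAC (log2 fold change -0.45, FDR = 0.062). Ube2a had the lowest log2 fold change, -0.56 (FDR = 0.0761), at 8.58 to 13.4 CPM in AM and 14.5 to 18.1 CPM in CAC. Ube2d3 was at 136, 182, 179, and 154 CPM in AM, below all CAC mice (log2 fold change -0.44, FDR = 0.0842). Ube2m, the NEDD8 enzyme that serves cullin ligases, was at 35.1 to 48.5 CPM in AM and 49.6 to 58.1 CPM in CAC (log2 fold change -0.37, FDR = 0.0921). Ube2s and Ube2k, a lysine-48 enzyme, had the same log2 fold change of -0.32 (FDR = 0.114 and 0.141). Rpl28, which shares exonic bases with Ube2s, had a log2 fold change of -0.45 (edgeR FDR = 0.0777).

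The genes with an FDR of at most 0.05 in CAC vs. NOR, of which Ube2j2 was not called, gave these values under amiloride. Ube2j1 was at 56.8, 49.0, 61.1, and 53.5 CPM in AM, below every CAC mouse and overlapping the NOR mice. Its log2 fold change against CAC was -0.48 ± 0.15 (SE, edgeR FDR = 0.109), and against NOR it was 0.15 (FDR = 0.657). Ube2j2 was at 31.2, 26.1, 34.6, and 24.4 CPM (log2 fold change against CAC -0.28, FDR = 0.251). Ube2c was at 24.0, 27.8, 34.4, and 38.3 CPM (0.30, FDR = 0.445), and Tnnc2 was again near, with 0.384 ± 0.0418 CPM of Ube2c per 100 CPM (SD, n = 4). Ube2l6 had a log2 fold change of 0.14 with a 95% interval of -0.89 to 1.18 (FDR = 0.886), and without AM replicate 2 it was -0.43. Among the abundant genes, Ube2b was at 185, 256, 295, and 274 CPM, Ube2g2 at 90.4, 115, 98.3, and 108 CPM, and Ube2d1 at 113, 168, 205, and 155 CPM. Ube2s was at 41.5, 39.0, 41.9, and 46.2 CPM, Ube2n at 40.6, 48.8, 60.4, and 58.0 CPM, and Ube2g1 at 75.2, 105, 113, and 101 CPM.

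KD was compared with CAC as the arm in which exosome release from the tumor is impaired genetically. Of the 33 genes, 0 were called by edgeR or by DESeq2, beside 0.00685% of all genes by edgeR (1 of 14593). Ube2c and Ube2d1 reached an unadjusted p below 0.05, which is 6.06% of the 33 genes (background 11.1%). Both were higher in KD (background for higher 6.06%). The groups overlapped in all 33 genes (7.29% of all genes did not overlap). Ube2c was at 26.3, 45.9, 39.3, and 38.7 CPM in KD (log2 fold change 0.57, edgeR FDR = 0.396), with 0.419 ± 0.0379 CPM per 100 CPM of Tnnc2. Ube2d1 was at 119, 211, 232, and 169 CPM (0.53, FDR = 0.426). Ube2j1 was at 48.6, 77.0, 57.1, and 46.4 CPM (-0.43, FDR = 0.503), and Ube2j2 at 26.7, 43.1, 34.0, and 26.1 CPM (-0.12, FDR = 0.863). KD replicate 2 was the highest of the 4 for Ube2l6, Ube2j1, Ube2j2, and Ube2c, and its erythroid genes were the highest of all libraries. Ube2l6 had a log2 fold change of 0.47 with a 95% interval of -0.69 to 1.62 (FDR = 0.794), and without KD replicate 2 it was -0.20. Ube2b was at 171, 474, 405, and 255 CPM, a wider range than in any other group. Ube2g2 was at 82.6, 147, 117, and 93.3 CPM and Ube2d3 at 124, 239, 170, and 172 CPM. Ube2s was at 33.5, 68.7, 54.1, and 45.9 CPM, Ube2n at 47.9, 63.1, 59.2, and 54.4 CPM, and Ube2g1 at 56.5, 139, 133, and 109 CPM. In these last 6 genes KD replicate 1, a library of the Rpl26 pattern, was the lowest and KD replicate 2 the highest. Of the 33 genes, 12 had a 95% interval that lay within 1.5-fold in both directions. A total of 20 genes had a log2 fold change above 0 after TMM normalization and 15 with scaling by totals, so no direction of the family can be given.

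The AM and KD mice were also set against NOR. In AM vs. NOR 0 of the 33 genes were called by edgeR or DESeq2 (background 0% of 14738 genes by edgeR). An unadjusted p below 0.05 was reached by 6 genes (18.2%, background 9.19%), 5 lower (background 4.13%) and Ube2l6 higher (background 5.06%). The smallest was that of Ube2f, the second NEDD8 enzyme, at 36.9 to 46.9 CPM in AM and 47.7 to 57.7 CPM in NOR (log2 fold change -0.37, FDR = 0.518). In KD vs. NOR 0 genes were called by either tool (background 0% of 14748 genes by edgeR), and 1 gene, Ube2l6, reached an unadjusted p below 0.05 (3.03%, background 3.54%). The log2 fold change of Ube2l6 was 1.06 ± 0.40 in AM and 1.37 ± 0.45 in KD (SE, edgeR FDR = 0.531 and 0.999), with the spread described above. With each mouse left out, it was 0.47 to 1.31 in AM and 0.71 to 1.61 in KD.

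The rest of the cascade was read from lists of genes, whose counts stand beside 4.32% of all genes upregulated in CAC vs. NOR and 3.66% called in AM vs. CAC. Among the 4 ubiquitin precursors, Ubb was upregulated in CAC (log2 fold change 0.62, FDR = 0.0394, edgeR), at 780 to 1137 CPM in NOR and 1296 to 1761 CPM in CAC. In AM vs. CAC it was downregulated (-0.74, FDR = 0.0224), at 810 to 985 CPM in AM. Of 15 ubiquitin-like modifiers, 3 were upregulated in CAC, namely Gabarap (0.64, FDR = 0.00835), Gabarapl1 (0.64, FDR = 0.0223), and Map1lc3b (0.88, FDR = 0.00988), all of them modifiers of autophagosome membranes. In AM vs. CAC Map1lc3a (-0.67, FDR = 0.03) and Map1lc3b (-0.72, FDR = 0.0264) were downregulated. None of the 10 E1 subunits and none of the 9 E2 enzymes with other names was called in either comparison. Atg10, the E2 of ATG12, had an FDR of 0.122 in CAC vs. NOR. Of 30 ligase genes that work with the named E2 enzymes, 1 was called, Rnf126, a ligase for misplaced membrane proteins in the cytosol. It was at 62.4 to 70.2 CPM in NOR, 100 to 115 CPM in CAC, and 51.8 to 65.9 CPM in AM, higher in CAC than in NOR (0.71, FDR = 0.00326) and lower in AM than in CAC (-0.83, FDR = 0.00797). In KD vs. CAC 0 genes of these 5 lists were called. The medians of the lists in CAC vs. NOR were 0.32 for precursors, 0.39 for ubiquitin-like modifiers, 0.07 for E1 subunits, -0.04 for the other E2 enzymes, and 0.13 for ligases, beside 0.01 over all genes.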

How the data were processed

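Gastrocnemius RNA of 16 mice was sequenced after poly(A) selection. The authors deposited whole-number read counts per gene, without normalization, and FPKM values made from them. The submitters' processing notes name fastp, Bowtie2, HISAT2, and StringTie 1.3.1 and the builds mm9 and GRCm38, with no role. The paper's methods name NOISeq for the DEGs, which was not used here. Counts were tested in R 4.3.3 with edgeR 4.0.16 (TMM, filterByExpr with minimum count 10 and minimum total 15, quasi-likelihood F test) on the 8 libraries compared, with Benjamini-Hochberg adjustment over all genes tested. FPKM served only for levels. Totals were 35913190 to 61032708 counts per library. Alternatives were RLE or total scaling, no filter, DESeq2 1.42.0, other fold limits, covariates, and leaving out libraries, of which those on the Rpl26 pattern and the lymphocyte level were chosen after seeing the data. The fit was tested on simulated data. Values in every library are given for called genes, the 5 highest by FPKM, and Ube2b, Ube2n, Ube2d1, and Ube2g1, and any others were named after their values were seen. The genes and lists were chosen with earlier results of these data known. Exact permutation tests of 4 against 4 cannot give a p below 0.0286. Positions and shared words come from GENCODE M21 (GRCm38), and promoters, found for 30 of the 37 genes, from RefSeq. Some genes counted in the totals are not reported here by name.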

Additional observations from a re-analysis of the deposited data

Results flagged for a closer look

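Of 40 combinations of gene and group tested (10 genes in 4 groups), 3 held a mouse that stood far from the other 3, and chance alone gives about 1 in 20. Ube2j1 was at 103.8 CPM in CAC replicate 4, a library of the Rpl26 pattern, and at 67.8 to 68.6 CPM in the other CAC mice. Ube2g2 was at 90.43 CPM in CAC replicate 3 and at 133 to 135 CPM in the other CAC mice. Ube2c was at 32.96 CPM in NOR replicate 4 and at 43.5 to 45.6 CPM in the other NOR mice, and Tnnc2 was at its lowest NOR level, 9009 CPM, in the same library.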

How the results depend on the processing

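The 3 calls in CAC vs. NOR became 0 with a fold change limit of 2, 0 in mice labelled C57BL/6 alone, and 0 in mice labelled BALB/c alone (2 against 2). They became 1 without the 4 libraries of the Rpl26 pattern and 1 with that pattern as a covariate, both chosen after seeing the data, and 0 to 3 with each mouse left out. They became 4, with Ube2j2 added, with total counts as scaling and with no fold limit. For the other comparisons and for the strain interaction the count was 0 under every setting run. The replicate numbers were not taken to pair the mice, which would have needed a correlation of deviations over 0.1 in every same-number pair. In CAC vs. NOR the correlations were 0.684, 0.178, 0.412, and -0.237. With the replicate number as a block 3 genes were called in CAC vs. NOR, the same genes, and 0 in the other comparisons.

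Some uncalled values changed sign. Ube2g1 in CAC vs. NOR was 0.011 on the log2 scale with total counts as scaling, 0.078 in mice labelled C57BL/6, and -0.19 to 0.011 with each mouse left out. Ube2l6 in AM vs. CAC was -0.064 with the replicate block, -0.44 in mice labelled BALB/c, and -0.43 to 0.39 with each mouse left out, and in KD vs. CAC it was -0.46 in mice labelled BALB/c and -0.20 to 0.70 with each mouse left out. In mice labelled C57BL/6, Ube2c in AM vs. CAC was -0.23 and Ube2j2 in KD vs. CAC was 0.031. In mice labelled BALB/c, Ube2c in KD vs. NOR was 0.024. The causes were not tested. Of 770 values of single genes under these settings, 729 kept their direction and their side of the limits, most of them of genes that were not called. The called genes lost their call in CAC vs. NOR in 5 (Ube2l6), 12 (Ube2j1), and 10 (Ube2c) of 22 settings each. Totals were 35913190 to 61032708 counts per library. The results are limited by the spread between mice and by the libraries of the Rpl26 pattern. Sequence shared with other genes also limits Ube2c, Ube2s, and Ube2v1, as its counting is not given in the sources used here.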

Other observations

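The level of Ube2v1 and its read-through neighbour Gm20431 fell into separate ranges that cut across the groups. The sum of both genes was 37.3 to 43.0 CPM in 5 libraries (NOR replicate 1, CAC replicate 2, AM replicate 2, and KD replicates 1 and 2) and 75.2 to 123 CPM in the other 11. The 5 libraries with at least 53.4 CPM of Gm20431 were all among these 11.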
